A study of Mus musculus with 6 samples.

Results

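The epidermal differentiation complex is a stretch of mouse chromosome 3 in which many of the genes for the outer layers of the epidermis lie side by side. Its members were chosen by name as the small proline-rich proteins (Sprr), the late cornified envelope proteins (Lce), the S100a calcium-binding proteins, the S100-fused-type proteins (Flg, Flg2, Hrnr, Rptn, Tchh, Tchhl1 and Crnn), and Lor, Ivl and Crct1. The rule found 67 of the 46517 gene identifiers in the files, which carry 60 distinct symbols because Flg is listed under 8 identifiers. Of the 67 identifiers, 60 were detected, meaning an expected count above 0 in at least 1 library, and 7 were at 0 in every library.

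RNA was sequenced from hair germ stem cells sorted from back skin of mice at 60 days of age, 3 days after depilation, which starts a new hair cycle. All mice, WT included, carried the Cre driver Sox9-CreER and the reporter R26-lox-stop-lox-YFP. To these the LEF1_TCF7dKO mice (the double knockout) added Lef1fl/fl and Tcf7-/-, the LEF1cKO mice added Lef1fl/fl alone, and the WT mice added no allele. Cells were sorted on P-cadherin, Sca-1, CD34, integrin b1 and YFP. The Sox9 promoter drives the Cre that deletes Lef1, whereas the Tcf7-/- alleles of the double knockout do not depend on Cre. Each of the 3 groups has 2 libraries of mixed sex, and whether those are separate animals is not stated. The p-values therefore measure only how far these libraries differ, which may be technical.

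In the epidermis, basal keratinocytes that leave the basement membrane switch on keratins and then, near the surface, the genes of this complex. Involucrin (Ivl), loricrin (Lor), Sprr and Lce proteins are cross-linked by transglutaminases into the cornified envelope beneath the cell membrane. Filaggrin (Flg) and the related fused-type proteins are stored in granules and bundle keratin filaments, while trichohyalin (Tchh) does this work in the inner root sheath of the hair follicle. The hair germ is an undifferentiated progenitor population, and LEF1 and TCF7 are DNA-binding partners of beta-catenin in the Wnt pathway.

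Depth was 40480615 and 42987115 expected counts in the double knockout, 49656856 and 54282998 in LEF1cKO, and 52935313 and 63219925 in WT. At these depths a count of 0 allows up to 3 counts by counting error alone, which is 0.0475 to 0.0741 CPM (counts scaled to library size). Lef1 was at 9.22 and 9.42 TPM (transcripts scaled by length and to the library) in the double knockout, 13.51 and 8.37 in LEF1cKO, and 21.44 and 20.36 in WT. Tcf7 was at 13.65 and 18 TPM in the double knockout, 29.31 and 27.79 in LEF1cKO, and 26.93 and 36.01 in WT. Both targeted genes were thus lower in the groups that carry their mutant alleles, although transcripts were still counted there. The sources used here do not say which exons the alleles remove. Of the hair germ and bulge markers, Fgf18 did not exceed 0.21 TPM, while Krt15 and Lhx2 were detected in every library. Krt15 was at 1438 and 2310 TPM in the double knockout, 784.5 and 1239 in LEF1cKO, and 760.4 and 745.5 in WT. Lhx2 was at 114.2 and 198.2 TPM in the double knockout, 402.3 and 368.0 in LEF1cKO, and 336.8 and 381.0 in WT. Of 9 such markers tested, 3 were higher and 5 lower in the double knockout than in WT (adjusted p under 0.05, edgeR). Over all genes tested these shares were 18.0% and 19.6%.

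Levels below are TPM, which is scaled by transcript length. Differences are log2 fold changes ± SE from edgeR's quasi-likelihood test with Benjamini-Hochberg adjustment over the 19640 genes tested, and "rose" or "fell" means an adjusted p under 0.05. Of the 67 identifiers, 41 passed the filter on low counts and 38 reached 1 TPM in at least 1 library. By class, the tested identifiers were 12 of 14 S100a, 11 of 14 fused-type (7 of the 8 Flg identifiers among them), 11 of 15 Sprr, 4 of 21 Lce, and all 3 of Lor, Ivl and Crct1. The 19 identifiers that were detected but not tested were 12 Lce genes, 3 Sprr genes (Sprr2b, Sprr2e and Sprr2i), Crnn, Tchhl1, S100a5 and 1 Flg identifier. None of these 19 exceeded 0.62 TPM in any library. The 7 at 0 in every library were Lce1h, Lce1j, Lce3a, Lce3b, Lce3d, S100a2 and Sprr3.

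The Flg identifiers need care because a read can match several of them. One of them, ENSMUSG00000102439, is in GENCODE M21 (GRCm38, the mm10 build), at chr3:93273523-93293686 on the plus strand, where it is tagged as overlapping another locus and as sitting on an error of the reference genome. It is the Flg identifier that was not tested, at 11.49 counts over all libraries and at most 0.07 TPM. The tested Flg identifiers, which hold nearly all Flg counts, have no position there. Counts of the 8 identifiers were therefore summed for the values given for Flg below, and with this sum 35 of the 60 genes were tested. Sprr2a1 and Sprr2a2 overlap in GENCODE M21, so their reads cannot be told apart with certainty, and many Sprr2 and Lce1 genes are near-identical copies. For these the sums over a family stand beside the single genes.

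To show the regions in front of the genes that the results turn on, the 250 bases before the RefSeq start (GRCm38.p6) are printed 5′ to 3′ on the gene's own strand. Flg and Ivl are cornification genes that rose in the double knockout, Hrnr rose as well but has no AP-1 match in this window, and Sprr2k was listed at 0 in WT. Capitals mark every match to TGANTCA, the binding motif of AP-1 (Fos and Jun dimers), and to TATAAA, the TATA box. The Flg window is chr3:93273296-93273545 on the plus strand, Ivl chr3:92573736-92573985 on the minus strand, Hrnr chr3:93319499-93319748 on the plus strand and Sprr2k chr3:92432332-92432581 on the plus strand.
Flg: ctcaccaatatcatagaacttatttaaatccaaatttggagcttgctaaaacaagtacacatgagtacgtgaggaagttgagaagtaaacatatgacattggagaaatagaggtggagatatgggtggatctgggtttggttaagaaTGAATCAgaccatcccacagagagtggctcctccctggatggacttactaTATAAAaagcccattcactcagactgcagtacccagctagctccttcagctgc
Ivl: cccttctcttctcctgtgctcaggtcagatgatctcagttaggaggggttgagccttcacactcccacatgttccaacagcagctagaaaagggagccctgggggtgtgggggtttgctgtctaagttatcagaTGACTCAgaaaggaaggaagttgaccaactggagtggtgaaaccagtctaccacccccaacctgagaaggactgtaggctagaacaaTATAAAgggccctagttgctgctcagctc
Hrnr: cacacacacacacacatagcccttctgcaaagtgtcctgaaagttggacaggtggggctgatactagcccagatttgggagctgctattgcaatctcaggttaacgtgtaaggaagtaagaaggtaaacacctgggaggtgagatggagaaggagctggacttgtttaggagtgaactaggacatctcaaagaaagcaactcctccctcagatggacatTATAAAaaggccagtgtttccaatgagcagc
Sprr2k: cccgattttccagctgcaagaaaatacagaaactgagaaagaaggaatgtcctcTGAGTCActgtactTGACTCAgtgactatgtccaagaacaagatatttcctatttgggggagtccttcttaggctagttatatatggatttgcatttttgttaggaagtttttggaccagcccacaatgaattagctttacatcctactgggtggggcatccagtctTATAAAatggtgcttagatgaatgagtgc

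In Flg the AP-1 match begins 103 bases before the start and the TATA match 53 bases before it. In Ivl they begin at 116 and 29 bases. Sprr2k has AP-1 matches at 196 and 182 bases and a TATA match at 29 bases, and the TATA match of Hrnr is at 31 bases. Of the 60 symbols, 54 matched a RefSeq promoter. TGANTCA was in 17 of the 54 (31.5%), against 6.75% of all 32851 promoters of the same length. The matches were uneven among the classes, with 9 of 14 Sprr, 5 of 7 fused-type, 2 of 2 for Lor and Ivl, 1 of 11 S100a and 0 of 20 Lce promoters. TATAAA was in 22 of 54 (40.7%), against 12.4% of all promoters. CTTTGAT, a LEF/TCF motif, was in 1 of 54 (1.85%), against 3.21% of all promoters. AACCNGTT, the motif of the Grhl factors, was in 2 of 54 (3.70%), against 1.79%. All were searched on both strands. The last letters of CTTTGAT can also begin a TGANTCA match, and the last letters of TATAAA an AACCNGTT match. The shares count each copy of a family as 1 promoter, so the promoters are not independent. Sprr2b, Sprr2d, Sprr2e, Sprr2f, Sprr2h, Sprr2i and Sprr2k each have AP-1 matches at 182 to 198 bases and a TATA match at 29 bases. The Sprr2a1 and Sprr2a2 windows are the same sequence. A match to letters is not evidence of binding.

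The summed level of all members was 4670 and 5186 TPM in the double knockout, 2838 and 3537 in LEF1cKO, and 3426 and 3026 in WT. Most of this was S100a RNA, at 3832 and 4292 TPM in the double knockout, 2431 and 3206 in LEF1cKO, and 3112 and 2781 in WT. The classes that build the cornified layer were much lower. Sprr genes summed to 628 and 727 TPM in the double knockout, 306 and 292 in LEF1cKO, and 277 and 212 in WT. Fused-type genes summed to 138 and 107 TPM in the double knockout, 55.5 and 19.0 in LEF1cKO, and 14.6 and 14.7 in WT. Lor, Ivl and Crct1 together stood at 67.0 and 52.2 TPM in the double knockout, 43.5 and 17.8 in LEF1cKO, and 20.2 and 16.8 in WT. Lce genes were close to the limit of detection, at 4.77 and 6.54 TPM in the double knockout, 1.74 and 2.43 in LEF1cKO, and 2.21 and 2.28 in WT. In every class both double knockout libraries lay above all other libraries, and in the fused-type and Sprr classes both LEF1cKO libraries also lay above both WT libraries.

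**Figure D1:**
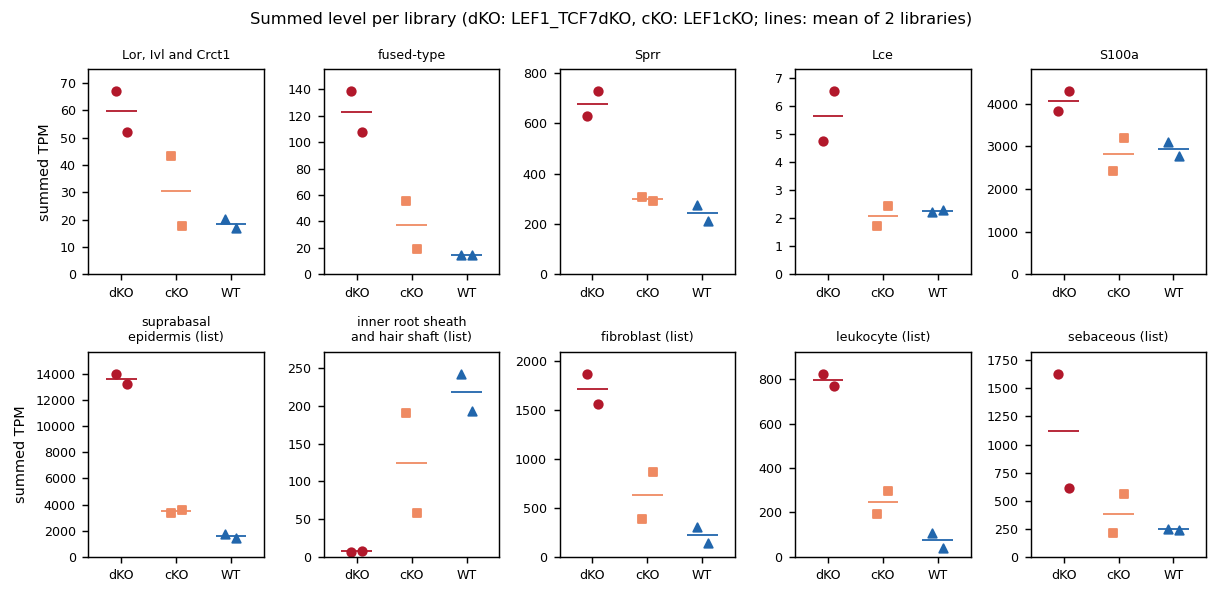
Summed TPM in each library of the members of each class (upper row) and of 5 marker lists (lower row), on linear axes from 0, with 2 libraries (points) and their mean (line) in each of LEF1_TCF7dKO (dKO), LEF1cKO (cKO) and WT. Both double knockout libraries are the highest of each class of members, and the 2 LEF1cKO libraries are far apart in the fused-type class (55.5 and 19.0 TPM) and in Lor, Ivl and Crct1 (43.5 and 17.8 TPM).

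Loss of both factors was compared with WT first. Of the 41 identifiers tested, 14 rose (34.1%) and 1 fell (2.44%), while over all genes tested 18.0% rose and 19.6% fell. In all, the share of identifiers that changed, 36.6%, was near the background of 37.6%, and the difference from the background lay in the direction. These shares count Flg once for each of its tested identifiers. The median log2 fold change was 1.36 over the 41 identifiers and 0.01 over all genes, and it is the same with members listed at 0 in WT set to their lower bound. With Flg counted once, 9 of 35 genes rose (S100a4, S100a11, Lce1m, Hrnr, Ivl, Flg2, Sprr2k, Sprr2a2 and Flg), beside 18.0% of all genes. Only 1 fell (S100a3), beside 19.6% of all genes, 25 did not pass, and the median was 1.32. TPM of both double knockout libraries lay above both WT libraries for 29 of the 41 identifiers (70.7%, against 43.4% of all genes) and below them for 2 (4.88%, against 30.7%). Fewer cells of a type and less RNA per cell cannot be told apart in such bulk libraries. The count of 15 depends on the libraries used. It fell with any 1 WT or double knockout library left out and rose with either LEF1cKO library left out. The number of genes called in all moved the same way each time.

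Ivl, the early scaffold protein of the cornified envelope, had 36.24 and 26.91 TPM in the double knockout, 13.89 and 10.14 in LEF1cKO, and 8.99 and 9.29 in WT. The 3 groups do not overlap, and the double knockout stands well clear of the others. Ivl rose by a log2 fold change of 1.65 ± 0.23 relative to WT (adjusted p = 0.00528, edgeR) and kept its call with any 1 library left out. Lor, the main envelope protein of the epidermis, had 24.23 and 18.02 TPM in the double knockout, 19.81 and 4.97 in LEF1cKO, and 8.85 and 6.05 in WT. Here the double knockout libraries lay above WT, whereas the LEF1cKO libraries fell on either side of the WT values. The Lor difference of 1.36 ± 0.63 did not pass the test (adjusted p = 0.136, edgeR). Crct1, a small cysteine-rich protein gene of the same stretch, had 6.51 and 7.31 TPM in the double knockout, 9.76 and 2.69 in LEF1cKO, and 2.40 and 1.45 in WT. Its difference of 1.66 ± 0.65 between the double knockout and WT did not pass either (adjusted p = 0.0936, edgeR). With either LEF1cKO library left out, Lor and Crct1 passed, as did Sprr1a, Sprr1b and Lce1a1 among the other genes named here.

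The fused-type genes had the largest median of the classes. With Flg counted once, 3 of 5 tested rose (Flg, Flg2 and Hrnr), beside 18.0% of all genes. None fell, beside 19.6% of all genes, and the median log2 fold change was 2.88. By identifier, 8 of 11 rose with a median of 3.85, and 6 of the 8 were Flg identifiers. Flg, whose product is processed into the filaggrin that bundles keratin, summed to 114.3 and 87.69 TPM in the double knockout, 45.27 and 13.67 in LEF1cKO, and 10.14 and 9.43 in WT. The order of the groups holds in every library. The summed counts rose by 2.88 ± 0.54 relative to WT (adjusted p = 0.0107, edgeR). This call ended without WT replicate 1 (adjusted p = 0.0558), without WT replicate 2 (0.0678) and without double knockout replicate 1 (0.0595), with differences from 2.74 to 2.97. Among single identifiers, ENSMUSG00000103750 was at 9.34 and 3.83 TPM in the double knockout, 0 and 0.05 in LEF1cKO, and 0 in both WT libraries. Against the floor of 3 counts over the WT group it was at least 108.9-fold higher in the double knockout, although how reads were split among the Flg identifiers is uncertain.

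Flg2, a filaggrin relative, had 12.75 and 5.87 TPM in the double knockout, 2.23 and 0.50 in LEF1cKO, and 0.38 and 0.12 in WT. No group overlaps another, and the replicates within a group differ by more than 2-fold in each. Flg2 rose by 5.05 ± 1.07 relative to WT (adjusted p = 0.0152, edgeR), a call that ended without replicate 2 of WT or replicate 1 of the double knockout (adjusted p up to 0.0767). Hrnr, which encodes hornerin, had 7.37 and 8.22 TPM in the double knockout, 5.05 and 2.25 in LEF1cKO, and 0.76 and 0.23 in WT. It was near silent in WT and was measured at several TPM in both knockouts. Hrnr rose by 3.85 ± 0.66 relative to WT (adjusted p = 0.00825, edgeR), also with any 1 library left out. Rptn, which encodes repetin, stayed low, at 1.06 and 1.90 TPM in the double knockout, 1.15 and 0.13 in LEF1cKO, and 0.40 and 0.27 in WT, and its difference of 1.998 ± 0.93 did not pass (adjusted p = 0.141, edgeR).

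Tchh did not pass the test. It had 3.01 and 3.51 TPM in the double knockout, 1.72 and 2.40 in LEF1cKO, and 2.83 and 4.48 in WT. The double knockout and WT values overlap, and the difference was -0.30 ± 0.27 (adjusted p = 0.419, edgeR). Of the keratins of the inner root sheath and hair shaft, listed beside it, 6 of 6 tested fell relative to WT, beside 19.6% of all genes. Their summed levels were 6.86 and 7.49 TPM in the double knockout, 191 and 58.0 in LEF1cKO, and 243 and 193 in WT. Krt28 fell by 5.42 and Krt73 by 4.70 on the log2 scale (adjusted p = 0.00408 and 0.00421, edgeR).

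**Figure D2:**
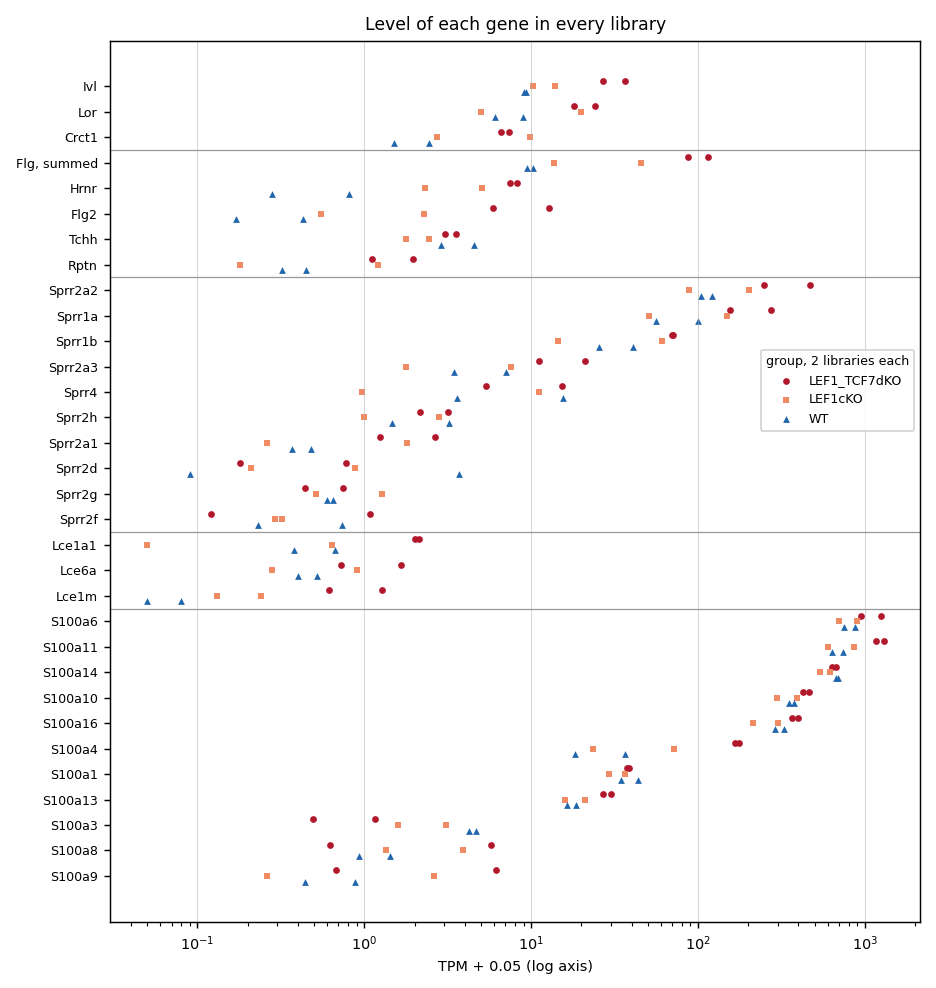
TPM of members that reached 1 TPM in at least 1 library, in each of the 6 libraries, plotted as TPM + 0.05 on a log axis, 1 point per library, with Flg as the sum of its identifiers. Ivl, Flg, Flg2 and Hrnr are highest in both double knockout libraries, whereas Tchh overlaps between the double knockout and WT.

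Among the Sprr genes, which act as cross-bridging proteins of the envelope, 2 of 11 tested rose (18.2%, beside 18.0% of all genes) and none fell (beside 19.6%), with a median log2 fold change of 0.95. Sprr2a2 was the highest, at 250.4 and 468.9 TPM in the double knockout, 88.85 and 203.1 in LEF1cKO, and 104.7 and 121.0 in WT. The double knockout lay above both other groups, and the LEF1cKO libraries lay on either side of WT. Sprr2a2 rose by 1.55 ± 0.43 relative to WT (adjusted p = 0.0343, edgeR), a call lost without either WT library or without double knockout replicate 2 (highest adjusted p = 0.157). Summed over the 11 Sprr2 members, the difference was 1.52 ± 0.42 (adjusted p = 0.0339, edgeR), a value that does not rest on how reads were split within the family, but the call ended without either WT library or without double knockout replicate 2 (highest adjusted p = 0.156). Sprr2k, at 0.85 and 0.79 TPM in the double knockout and 0.28 and 0.16 in LEF1cKO, was listed at 0 in both WT libraries. Against the floor of 3 counts over the WT group it was at least 11.1-fold higher in the double knockout and at least 3.02-fold higher in LEF1cKO. Its call relative to WT (adjusted p = 0.0103, edgeR) ended without WT replicate 1, WT replicate 2 or double knockout replicate 1.

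Sprr1a had 274.2 and 155.0 TPM in the double knockout, 148.6 and 50.74 in LEF1cKO, and 99.36 and 55.92 in WT. Sprr1b had 70.50 and 69.60 TPM in the double knockout, 60.98 and 14.39 in LEF1cKO, and 40.72 and 25.40 in WT. Both stress-associated genes were above WT in each double knockout library, yet their differences of 1.32 ± 0.58 and 0.95 ± 0.64 did not pass (adjusted p = 0.119 and 0.285, edgeR). Sprr2a3 had 11.02 and 20.95 TPM in the double knockout, 1.72 and 7.55 in LEF1cKO, and 7.04 and 3.38 in WT. Sprr4 overlapped in all groups, with 15.21 and 5.33 TPM in the double knockout, 0.92 and 11.15 in LEF1cKO, and 15.44 and 3.52 in WT. The other 6 tested Sprr genes stayed at or below 3.66 TPM, and none of them but Sprr2k passed.

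Lce genes, which encode late envelope proteins, were few and faint. Lce1m had 0.56 and 1.22 TPM in the double knockout, 0.08 and 0.19 in LEF1cKO, and 0 and 0.03 in WT. It rose relative to WT (adjusted p = 0.0118, edgeR), from 37 counts in the double knockout and 1 in WT, a depth-scaled ratio of 51.5 with a 95% interval of 8.69 to 2088 for counting error only. This call ended without WT replicate 1, WT replicate 2 or double knockout replicate 2. Lce1a1 had 2.09 and 1.95 TPM in the double knockout, 0 and 0.59 in LEF1cKO, and 0.33 and 0.62 in WT. Lce1c had 0.98 and 0.55 TPM in the double knockout, 0.16 and 0.14 in LEF1cKO, and 0.27 and 0.31 in WT. Lce6a had 0.67 and 1.61 TPM in the double knockout, 0.23 and 0.85 in LEF1cKO, and 0.35 and 0.47 in WT. Lce1b, the next by level, was not tested, at 0.15 and 0.31 TPM in the double knockout, 0.11 and 0.30 in LEF1cKO, and 0.16 and 0.27 in WT. The Lce1a1, Lce1c and Lce6a differences of 1.93 ± 0.99, 1.29 ± 0.55 and 1.33 ± 0.78 between the double knockout and WT did not pass. Summed over the 14 Lce1 members, the level was 4.02 and 4.78 TPM in the double knockout, 0.94 and 1.58 in LEF1cKO, and 1.59 and 1.52 in WT, and the summed counts rose by 1.44 ± 0.36 against WT (adjusted p = 0.0252, edgeR). Leaving out any 1 WT or double knockout library ended this call (highest adjusted p = 0.152). Lce3 counts, even summed, were too low to be tested.

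S100a genes had the smallest median of the classes. Of 12 tested, 2 rose (16.7%, beside 18.0% of all genes) and 1 fell (8.3%, beside 19.6%), with a median log2 fold change of 0.43. S100a11, a calcium-binding protein that is also built into the cornified envelope, had 1175 and 1296 TPM in the double knockout, 604.9 and 856.9 in LEF1cKO, and 739.6 and 636.7 in WT. The double knockout stood apart, and LEF1cKO and WT overlapped. S100a11 rose by 0.71 ± 0.17 relative to WT (adjusted p = 0.0212, edgeR), but not without any 1 of the WT or double knockout libraries (highest adjusted p = 0.152). S100a6, S100a10, S100a14 and S100a16 were also abundant, and their differences from -0.20 (S100a14) to 0.29 (S100a6) did not pass in the double knockout against WT. S100a6 had 953.6 and 1246 TPM in the double knockout, 704.8 and 899.2 in LEF1cKO, and 871.6 and 751.7 in WT, and S100a14 had 636.6 and 671.7 TPM in the double knockout, 536.3 and 621.0 in LEF1cKO, and 692.2 and 672.5 in WT. S100a16 had 397.3 and 366.1 TPM in the double knockout, 214.1 and 301.6 in LEF1cKO, and 329.5 and 291.2 in WT.

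S100a4, best known from fibroblasts and leukocytes, had 177.2 and 165.5 TPM in the double knockout, 23.31 and 71.65 in LEF1cKO, and 36.28 and 18.27 in WT. The double knockout lay far above the rest, and the 2 LEF1cKO libraries were further apart than those of WT. S100a4 rose by 2.52 ± 0.54 relative to WT (adjusted p = 0.0156, edgeR), a call lost without WT replicate 2 or either double knockout library (highest adjusted p = 0.0839). Fibroblast markers moved with it, as 6 of 6 tested rose, beside 18.0% of all genes. Their summed level was 1865 and 1557 TPM in the double knockout, 384.7 and 867.6 in LEF1cKO, and 302.9 and 142.1 in WT. Col1a2, a collagen of dermal fibroblasts, rose by 3.59 ± 0.54 (adjusted p = 0.00633, edgeR) and Col1a1 by 3.65 ± 0.59 (adjusted p = 0.00731). Of the leukocyte markers 7 of 8 tested rose, also beside 18.0% of all genes. Summed, the leukocyte markers were at 824 and 767 TPM in the double knockout, 191 and 298 in LEF1cKO, and 108 and 40.6 in WT. Cd68, a macrophage gene, rose by 2.45 ± 0.19 (adjusted p = 0.00227, edgeR) and Cd207, a Langerhans cell gene, by 2.88 ± 0.32 (adjusted p = 0.00365). The part of these cells in the S100a4 result was not tested.

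S100a3, known from the hair cuticle, had 0.44 and 1.11 TPM in the double knockout, 3.03 and 1.54 in LEF1cKO, and 4.62 and 4.22 in WT. The groups are ordered without overlap, in the opposite direction to the envelope genes. S100a3 fell by 2.18 on the log2 scale relative to WT (SE 0.41, adjusted p = 0.0104, edgeR), a call that ended without replicate 1 of WT or of the double knockout (adjusted p up to 0.0625). S100a8 and S100a9, the subunits of calprotectin, were low and uneven. S100a8 had 0.57 and 5.67 TPM in the double knockout, 1.30 and 3.86 in LEF1cKO, and 1.38 and 0.88 in WT, and S100a9 had 0.63 and 6.10 TPM in the double knockout, 0.21 and 2.58 in LEF1cKO, and 0.39 and 0.83 in WT. Neither passed the test, and of the defining neutrophil markers Ly6g, Retnlg and Ngp were at 0 in every library. Of the 2 neutrophil markers tested, Csf3r rose relative to WT by 4.26 ± 0.44 (adjusted p = 0.00342, edgeR), at 2.71 and 1.69 TPM in the double knockout, 0.58 and 0.66 in LEF1cKO, and 0.12 and 0.08 in WT. Summed, the neutrophil markers stood at 5.34 and 5.23 TPM in the double knockout, 2.90 and 3.20 in LEF1cKO, and 2.10 and 2.42 in WT.

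**Figure D3:**
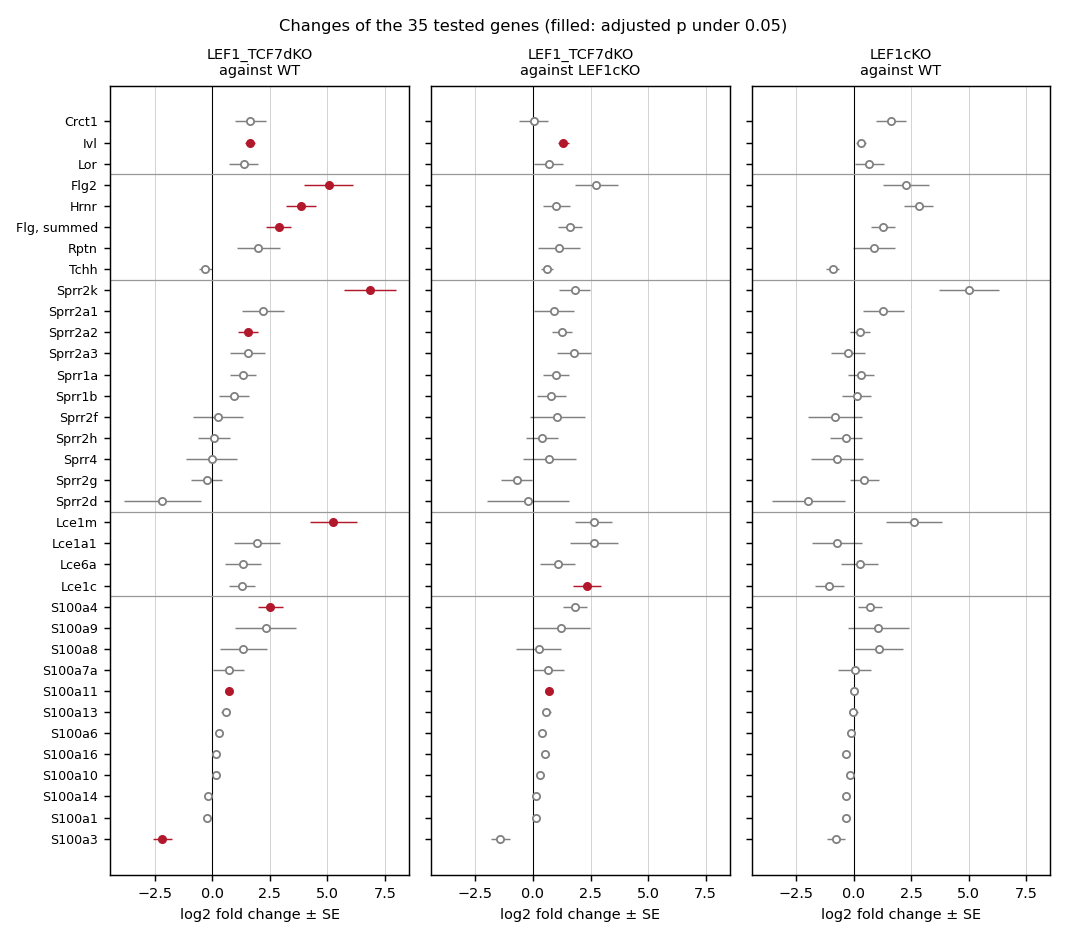
Log2 fold change (points) and SE (bars) of the 35 tested genes, by class, with Flg summed, for LEF1_TCF7dKO against WT, LEF1_TCF7dKO against LEF1cKO and LEF1cKO against WT. Flg, Flg2 and Hrnr rose by 2.88 to 5.05 in LEF1_TCF7dKO against WT, where S100a3 is the only member that fell, and no gene is filled in LEF1cKO against WT. For genes at 0 in a group, such as Sprr2k, the fitted fold depends on the added prior count.

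The double knockout was compared with LEF1cKO to see what loss of Tcf7 adds. Of the 41 identifiers, 5 rose (12.2%) and none fell, against 11.2% that rose, 14.1% that fell and 25.2% that changed either way among all genes. The share of members that rose by this test was thus near the background. An unadjusted p under 0.05 was found for 15 of the 41 (36.6%), against 41.5% of all genes. TPM of both double knockout libraries lay above both LEF1cKO libraries for 27 of the 41 identifiers (65.9%, against 35.0% of all genes) and below them for 1 (2.44%, against 29.4%). The median log2 fold change was 1.02 over the 41 identifiers and 0.0070 over all genes. With Flg counted once, 3 of 35 genes rose (S100a11, Lce1c and Ivl), with a median log2 fold change of 0.80. The 2 others of the 5 were the Flg identifiers ENSMUSG00000102829 and ENSMUSG00000103750. Ivl rose by 1.32 ± 0.23 (adjusted p = 0.0154, edgeR), except without double knockout replicate 1 (adjusted p = 0.0894). S100a11 rose by 0.70 ± 0.17 (adjusted p = 0.0316, edgeR), a call lost in 6 of the settings tried, and Lce1c by 2.34 ± 0.61 (adjusted p = 0.039, edgeR), lost in 9. Fewer members were called without double knockout replicate 1 and more without LEF1cKO replicate 2, and the number of genes called in all moved the same way. Without LEF1cKO replicate 1, more members but fewer genes in all were called.

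Summed Flg differed by 1.59 ± 0.52 between the double knockout and LEF1cKO (adjusted p = 0.0685, edgeR), Flg2 by 2.76 ± 0.94 (0.0778), S100a4 by 1.81 ± 0.53 (0.0514) and S100a3 by -1.41 ± 0.41 (0.0512), and none of these passed. The Lce1 family sum rose by 1.84 ± 0.37 (adjusted p = 0.0215, edgeR), a call that was kept in the leave-outs only without LEF1cKO replicate 2 (highest adjusted p = 0.0849 in the others). The Sprr2 sum differed by 1.26 ± 0.42 (adjusted p = 0.0713, edgeR) and the Sprr1 sum by 0.96 ± 0.58 (0.258).

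Loss of Lef1 alone was set against WT in the same fit. By the main test, no member passed (0 of 41), against 0.601% of all genes (0.224% higher and 0.377% lower). TPM of both LEF1cKO libraries lay above both WT libraries for 10 of the 41 identifiers (24.4%, against 28.3% of all genes) and below them for 4 (9.76%, against 13.4%). An unadjusted p under 0.05 was found for 9 of the 41 identifiers, against 1882 of 19640 genes (9.58%). With Flg counted once it was found for 6 of 35. DESeq2 called 2 of the 41 (4.88%), Hrnr and the Flg identifier ENSMUSG00000102829, against 3.24% of all genes. Summed Flg did not pass with DESeq2 (adjusted p = 0.188). Without the filter on low counts edgeR called 3 of 60, against 422 of 31448 genes (1.34%). These were Hrnr and the Flg identifiers ENSMUSG00000102724 and ENSMUSG00000102829. Hrnr, at 5.05 and 2.25 TPM in LEF1cKO and 0.76 and 0.23 in WT, had the difference of 2.83 ± 0.63 (adjusted p = 0.192, edgeR), which passed with DESeq2 and without the filter. Differences of 1.28 ± 0.52 for summed Flg (adjusted p = 0.513, edgeR), 2.29 ± 0.99 for Flg2 (0.557) and -0.91 ± 0.28 for Tchh (0.341) did not pass. Ivl differed by 0.33 ± 0.22 (adjusted p = 0.746, edgeR). Summed Flg passed without LEF1cKO replicate 2, at 1.90 (adjusted p = 0.0213, edgeR), and was 0.15 without LEF1cKO replicate 1. The median difference was 0.31 over the 41 identifiers and 0.01 over all genes.

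More of these genes were far apart between the 2 LEF1cKO libraries than between the replicates of the other groups. Of the 38 identifiers at 1 TPM or more, 12 lay within 2-fold of each other in LEF1cKO, against 26 in the double knockout and 26 in WT. In LEF1cKO, 14 were over 2-fold higher in replicate 1, among them several Flg identifiers, Lor, Crct1, Flg2, Hrnr, Rptn, Sprr1a and Sprr1b. The 12 over 2-fold higher in replicate 2 included Sprr2a2, Sprr2a3, Sprr4, S100a4, S100a8 and S100a9. These counts take each Flg identifier singly, and the same shares over all genes were not counted. Other markers differed between these 2 libraries as well, with fibroblast genes at 384.7 TPM in replicate 1 and 867.6 in replicate 2, sebaceous genes at 208.3 and 556.4, and inner root sheath and hair shaft genes at 191 and 58.0. In the double knockout the sebaceous genes summed to 1631 and 609 TPM, and in WT to 251 and 235. Of the 6 tested, 1 (Scd1) rose relative to WT (2.50 ± 0.71, adjusted p = 0.0363, edgeR), beside 18.0% of all genes. The part of these cells in the members' values was not tested.

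**Figure D4:**
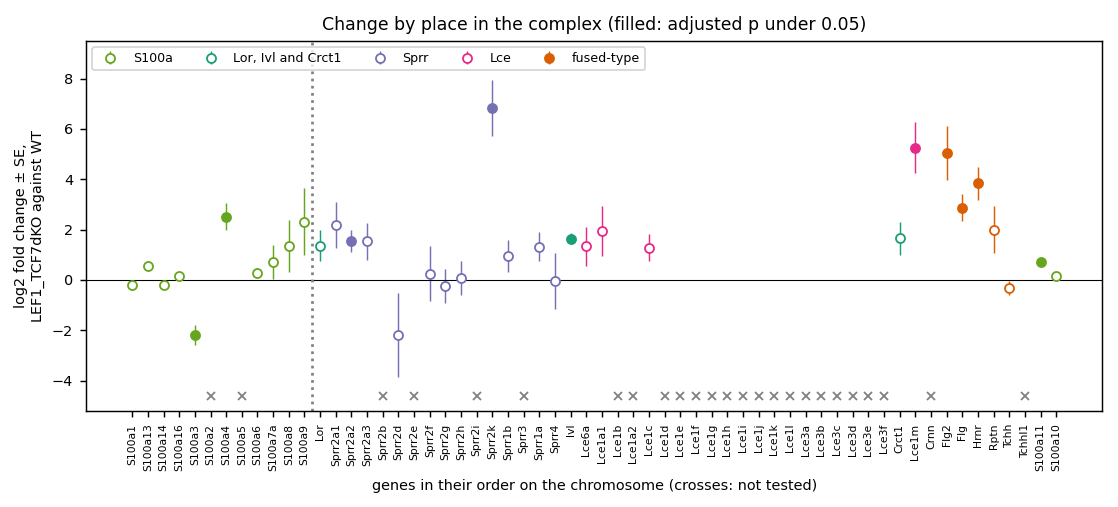
Log2 fold change ± SE of LEF1_TCF7dKO against WT for each tested gene in the order of the genes along the chromosome, coloured by class, filled where the adjusted p was under 0.05, with crosses for genes not tested and a dotted line between the 2 blocks. The S100a block (S100a1 to S100a9) holds 1 gene that rose and 1 that fell, and the block from Lor to S100a10 holds 7 that rose, besides summed Flg, and none that fell. Summed Flg is drawn at the place of its only identifier with a position in GENCODE M21, which was not itself tested. Over all genes tested, 18.0% rose and 19.6% fell.

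In GENCODE M21, 60 of the 67 identifiers matched, and all were on chromosome 3, between positions 90511034 and 93564643. Cutting at gaps over 300 kb left 2 blocks. The first, from S100a1 to S100a9 (90511034 to 90695721), held 12 members, of which 10 were tested, 1 rose (S100a4) and 1 fell (S100a3) relative to WT, with a median log2 fold change of 0.43. The second, from Lor to S100a10 (92080271 to 93564643), held 48 members, of which 24 were tested and 7 rose, with a median of 1.35. Over all genes tested, 18.0% rose and 19.6% fell. The block counts are small, and the difference between the blocks was not tested. The tested Flg identifiers had no position there and are not among these 24. S100a10 and S100a11 lie in the second block among the envelope genes. S100a11 rose and S100a10 did not pass, at 425.9 and 464.9 TPM in the double knockout, 297.5 and 389.7 in LEF1cKO, and 373.8 and 353.5 in WT. The order of the genes and the class are linked, since the first block holds only S100a members.

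Other genes of cornification rose alongside. Of 16 enzymes and scaffolds of the cornified envelope, 12 rose and 1 fell relative to WT, with a median log2 fold change of 1.87. Among all genes tested, 18.0% rose and 19.6% fell in this comparison. Periplakin (Ppl), a scaffold protein, rose by 2.48 ± 0.12 (adjusted p = 0.000874, edgeR) and envoplakin (Evpl) by 1.92 ± 0.16 (adjusted p = 0.00259). Padi3, an enzyme that modifies trichohyalin, fell by 5.49 on the log2 scale (adjusted p = 0.00553, edgeR). In LEF1cKO against WT 1 of the 16 rose, Ppl, by 0.95 (adjusted p = 0.0351, edgeR), beside 0.224% of all genes. In the double knockout against LEF1cKO 9 rose (beside 11.2% of all genes) and 1 fell (beside 14.1%). Of the other genes of the region outside the name rule, Kprp, Pglyrp3 and Pglyrp4 rose relative to WT. These are 3 of 3 tested, beside 18.0% of all genes. Pglyrp4, a peptidoglycan recognition protein, had 15.41 and 10.29 TPM in the double knockout, 1.93 and 4.85 in LEF1cKO, and 1.09 and 0.88 in WT. Its relative Pglyrp3 had 3.55 and 3.03 TPM in the double knockout, 0.73 and 1.10 in LEF1cKO, and 0.45 and 0.68 in WT.

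The transcription factors known for epidermal differentiation were divided. Of 20 tested, 10 rose and 2 fell (Prdm1 and Smarca4) relative to WT, with a median of 0.64. The shares over all genes were 18.0% that rose and 19.6% that fell, here and for the marker lists below. Grhl3, a grainyhead factor of the barrier, rose by 2.22 ± 0.15 (adjusted p = 0.00153, edgeR), and Maf, which acts in keratinocyte differentiation, by 0.86 ± 0.09 (adjusted p = 0.00345). None of the 20 passed in LEF1cKO against WT. In the double knockout against LEF1cKO 7 rose and 2 fell, beside 11.2% and 14.1% of all genes. Suprabasal markers rose in the double knockout against WT in 8 of 9 tested, with Krt1 at 3181 and 2996 TPM in the double knockout, 721.5 and 807.0 in LEF1cKO, and 367.5 and 314.6 in WT. Krt77, also a suprabasal keratin, was at 1701 and 1631 TPM in the double knockout, 382.0 and 417.9 in LEF1cKO, and 74.70 and 44.52 in WT. Summed, these suprabasal markers were at 14018 and 13202 TPM in the double knockout, 3389 and 3558 in LEF1cKO, and 1759 and 1448 in WT. Hair germ and bulge markers were divided, with 3 that rose (Cd34, Krt15 and Nfatc1) and 5 that fell (Lhx2, Lgr5, Cdh3, Sox9 and Tcf7l1) of 9 tested. Tcf7l1 fell by 1.81 on the log2 scale (adjusted p = 0.00331, edgeR) and Cd34, a bulge surface marker, rose by 1.54 ± 0.28 (adjusted p = 0.00954). The part that suprabasal cells in the sort may have in the members' values was not tested.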

How the data were processed

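RNA-seq of 6 libraries in 3 groups of 2 was grouped by title. Reads were handled with RSEM 1.2.30 and Bowtie2 2.2.9 on mm10, per the submitters' processing notes. Neither the annotation release nor the use of strand is given in the sources used here. Values in expected counts are the authors' RSEM estimates, deposited without normalization, and reads shared by paralogs are split by its model. The TPM values, scaled for effective length, and the FPKM values, which were not used in any test, were deposited by the authors, per the file headers. The deposited series TPM table held identical values and 92 spike-in identifiers, all at 0, were left out.

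Counts were rounded and fitted with edgeR 4.0.16 (R 4.3.3): TMM factors, filterByExpr by group, the quasi-likelihood F test, all 6 libraries in one model with 3 residual degrees of freedom, and Benjamini-Hochberg adjustment over 19640 genes at 0.05. The SE is the log2 fold change divided by the root of F. Depth was 40480615 to 63219925 expected counts per library, and floors and intervals cover counting error only. Alternatives used DESeq2 1.42.0, limma 3.58.1, other scalings and left-out libraries. Named genes are, per class, the 5 highest by TPM and up to 4 past the threshold per comparison with the smallest p, with every count of 5 or fewer named. From each list, the 2 with the smallest p were named. Members and lists were chosen with earlier results of these data known. Positions come from GENCODE M21 and promoters from RefSeq GRCm38.p6.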

Additional observations from a re-analysis of the deposited data

How the results depend on the processing

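The precision here is limited by 2 libraries a group, and for most Lce genes by depth. For LEF1_TCF7dKO against WT, the 15 members called became 24 (23 rose, 1 fell) with only the groups compared in the fit and 6 to 23 with 1 library left out, and the genes called in all ran from 1968 to 8333. For LEF1_TCF7dKO against LEF1cKO, the 5 members became 10 without the filter on low counts, 11 with DESeq2, 12 with limma on log2(TPM + 1), 8 with limma on log2(TPM + 0.1), 3 with only the groups compared, 3 with the Flg identifiers summed (chosen after seeing the data), and 0 to 13 with 1 library left out. All genes called there were 2585 with only the groups compared and 1 to 5973 with 1 library left out. For LEF1cKO against WT, the 0 members became 3 without the filter and 2 with DESeq2, and the 118 genes in all became 422 (216 rose, 206 fell) and 637 (373 rose, 264 fell), against 44 that rose and 74 that fell in the fit reported, with 78 to 138 when 1 library was left out. RLE size factors, library size only and the paralog families summed moved none of the members' counts by over 1.5 times. Without the S100a genes, another choice made after seeing the data, 12 of 29 members rose in LEF1_TCF7dKO against WT and none fell. Among all genes 18.0% rose and 19.6% fell, and 6 of the 12 are identifiers of Flg. Over all genes, the calls in LEF1_TCF7dKO against LEF1cKO were 5457 of 31448 without the filter, beside 10 of 60 members. With DESeq2 they were 6511 of 19640, beside 11 of 41 members. With limma at pseudocounts of 1 and 0.1 they were 4608 and 4287 of 19640, beside 12 and 8 of 41 members. In LEF1_TCF7dKO against WT they were 8531 of 19040 with only the groups compared, beside 24 of 41 members. The cause of the differences between settings was not tested.

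Replicate numbers were also used as a block. Deviations from the group means correlated at -0.042, 0.056 and -0.028 between groups, so no pairing by number was seen over all genes. This does not show whether replicates of a number share an effect in part of the genes. In every group the Sprr1 sum in TPM was higher in replicate 1 and the Sprr2 sum higher in replicate 2. With the replicate block 17 of 41 members were called in LEF1_TCF7dKO against WT, beside 6435 of 19640 genes. Against LEF1cKO 7 members were called, beside 3635 genes, and in LEF1cKO against WT 0 members, beside 80 genes. The Sprr1 sum then differed by 1.25 in LEF1_TCF7dKO against WT (adjusted p = 0.0323, edgeR), and the Sprr2 sum by 1.28 against LEF1cKO (adjusted p = 0.0345); DESeq2 gave 1.28 for the Sprr2 sum against LEF1cKO (adjusted p = 0.00651).

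With 1 library left out, log2 fold changes in LEF1_TCF7dKO against WT ran from 1.25 to 1.62 for the Lce1 sum, 0.88 to 1.67 for the Sprr1 sum, 0.98 to 1.93 for the Sprr2 sum and -0.91 to 1.40 for Sprr4. Against LEF1cKO they ran from 1.54 to 2.25 for the Lce1 sum, 0.34 to 2.11 for the Sprr1 sum, 0.73 to 1.93 for the Sprr2 sum, -0.033 to 2.07 for Lor, -0.66 to 1.31 for Crct1 and -0.18 to 3.31 for Sprr4. In LEF1cKO against WT, where none of these values passed the test in the fit reported, directions turned most often. The ranges were -0.89 to 0.88 for the Sprr1 sum, -0.40 to 0.70 for the Sprr2 sum, -0.40 to 0.75 for the Sprr2a sum, -0.22 to 0.19 for S100a11, -0.24 to 0.03 for S100a6, -0.25 to 1.27 for S100a4, -0.26 to 1.31 for Flg (ENSMUSG00000081977) and 0 to 3.06 for Flg (ENSMUSG00000103750). Lce1a1 ran from -6.32 to 0.22, Lce6a from -1.14 to 0.92, Lor from -0.70 to 1.38, Sprr2a2 from -0.36 to 0.73, Sprr1a from -0.73 to 0.91, Sprr1b from -1.32 to 0.86, Sprr2a3 from -1.67 to 0.45 and Sprr4 from -3.35 to 0.67.

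Other settings turned a direction for 3 values, all close to 0. S100a11 in LEF1cKO against WT was -0.0072 with RLE size factors, -0.0072 with DESeq2 and -0.010 with the replicate block. Sprr1b in LEF1cKO against WT was -0.10 with limma on log2(TPM + 1), -0.12 with log2(TPM + 0.1) and -0.060 with the replicate block. Sprr4 in LEF1_TCF7dKO against WT was 0.046 with library size only, 0.23 and 0.28 with limma at pseudocounts of 1 and 0.1, and 0.011 with the replicate block.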
